A study of Mus musculus with 35 samples.

Results

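The lungs of 5 male CD-1 mice exposed to styrene at 120 ppm were compared with those of 15 mice exposed at 10, 20 or 40 ppm, 5 mice at each concentration. The reference for each gene was the mean of the 3 group means, each with equal weight. Styrene, a volatile solvent used to make plastics, is oxidised by airway P450 enzymes in the mouse to a reactive epoxide. The comparison asks how lungs at the highest concentration differed from those at the concentrations just below it. These 20 mice were chosen by the concentration in their labels, out of 35 in the series.

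All 35 animals were adult males of CD-1, an outbred stock, bought from one supplier, and no group carried a genetic change. The 7 groups, of 5 mice each, breathed air alone or styrene at 1, 5, 10, 20, 40 or 120 ppm, and each mouse gave 1 array of whole lung RNA. Lungs were taken on the morning after exposure. The labels disagree on how long it lasted. The treatment protocol and titles of the samples name 6 hours on 1 day, whereas 5 days stands in the name of the series and in the characteristics. That choice is not settled here, and it applies equally to all groups. The tissue label was checked with 2 lung-defining transcripts. Sftpc, the surfactant protein of alveolar type II cells, lay between 13.75 and 13.78 at 120 ppm and between 13.70 and 13.81 at 10 to 40 ppm, in log2 units of array signal. Scgb1a1, the club cell secretoglobin, averaged 13.82 ± 0.06 at 120 ppm (SD, n = 5) and lay between 13.78 and 13.90 in the 15 mice at 10 to 40 ppm.

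The extracellular matrix of the lung holds collagen fibrils, basement membranes and elastic fibres. Elastic fibres are made of cross-linked elastin on a microfibril scaffold, and they let the lung recoil after each breath. Fibroblasts, smooth muscle cells and pericytes make most of this matrix, and much of it is laid down during growth of the lung.

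Of 17097 genes measured, 16 differed between 120 ppm and 10 to 40 ppm at an adjusted p under 0.05, which is 0.0936% of those tested. Here and below such genes are said to be called. The test was limma's moderated test in a model of all 7 group means, with Benjamini-Hochberg adjustment over all genes. The 14 genes that fell (0.0819%) included 7 genes of collagen or elastic fibres: Eln, Loxl1, Col1a1, Col3a1, Col5a1, Col4a1 and Col4a2. The 2 that rose (0.0117%) were Mthfd1l and Lonrf1. An unadjusted p under 0.05 was reached by 1836 genes (10.7%), of which 1072 were lower (6.27%) and 764 higher (4.47%) at 120 ppm. The median change over all genes was -0.02 on the log2 scale. No batch or date was given for the arrays, so none could be tested. In whole lung, fewer cells of a type and less RNA per cell cannot be told apart.

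Each lower concentration was part of the mean that chose the called genes, so the values against each alone are a description. All 16 had the same direction, at an unadjusted p under 0.05, against 10 ppm (5.55% of all genes), against 20 ppm (12.6%) and against 40 ppm (9.5%) taken alone, comparisons that share the 5 mice at 120 ppm. None of the 16 differed among 10, 20 and 40 ppm at an unadjusted p under 0.05, in a moderated F test that reached that level for 6.35% of all genes. All 5 mice at 120 ppm lay below all 15 others for 5 of the 14 genes that fell, against 26 of all genes (0.152%), and at least 4 of the 5 did so for 10 of the 14, against 145 of all genes (0.848%). The 14 were chosen by the difference between these same mice, so a higher share than over all genes was built in. Neither gene that rose had all 5 mice above all 15, which held for 2 of all genes (0.0117%).

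Eln encodes elastin, the core protein of the elastic fibre, and it changed most among the genes that fell. Its level was 7.79, 8.66, 7.07, 7.55 and 7.59 log2 in the 5 mice at 120 ppm, and it ran from 8.67 through a median of 8.98 to 9.40 in the 15 mice at 10 to 40 ppm. Each mouse at 120 ppm lay below every mouse at the lower concentrations, and mouse 2 only just did so. The change was -1.30 ± 0.17 (log2, SE; limma adjusted p = 0.000216), a level 2.46-fold lower. Group means for Eln were 10.05 in air, 10.39 at 1 ppm, 8.81 at 5 ppm, 9.05 at 10 ppm, 9.02 at 20 ppm, 9.03 at 40 ppm and 7.73 at 120 ppm. The level was thus flat from 10 to 40 ppm. Eln was the only gene called against each of 10, 20 and 40 ppm alone (limma adjusted p = 0.00915, 0.0132 and 0.0103). A second Eln probe set also fell, by 1.12 on the log2 scale.

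Loxl1 encodes a lysyl oxidase that cross-links elastin. It stood at 8.87, 9.40, 8.79, 8.55 and 8.83 log2 at 120 ppm, against 9.36 to 9.78 with a median of 9.52 at 10 to 40 ppm. Mice 1, 3, 4 and 5 lay below all 15, while mouse 2 lay inside their range. The change was -0.66 ± 0.11 (log2, SE; limma adjusted p = 0.00404).

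Other genes of the elastic fibre gave values without a call. Lox, the founding lysyl oxidase, had a change of -0.23 ± 0.22 (limma adjusted p = 0.786). Fbln5, a fibulin needed for elastic fibre assembly, had -0.28 ± 0.10 (adjusted p = 0.325), and Ltbp2, a latent TGF-beta binding protein of microfibrils, had -0.51 ± 0.14 (adjusted p = 0.163). Emilin1, a glycoprotein of the elastin and microfibril interface, had levels between 7.05 and 7.16 in the mice at 120 ppm and between 7.31 and 7.81 at 10 to 40 ppm. Those groups did not overlap, yet its change of -0.45 ± 0.11 missed the threshold in limma (adjusted p = 0.0945). Emilin1 was picked after its values were seen.

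**Figure D1:**
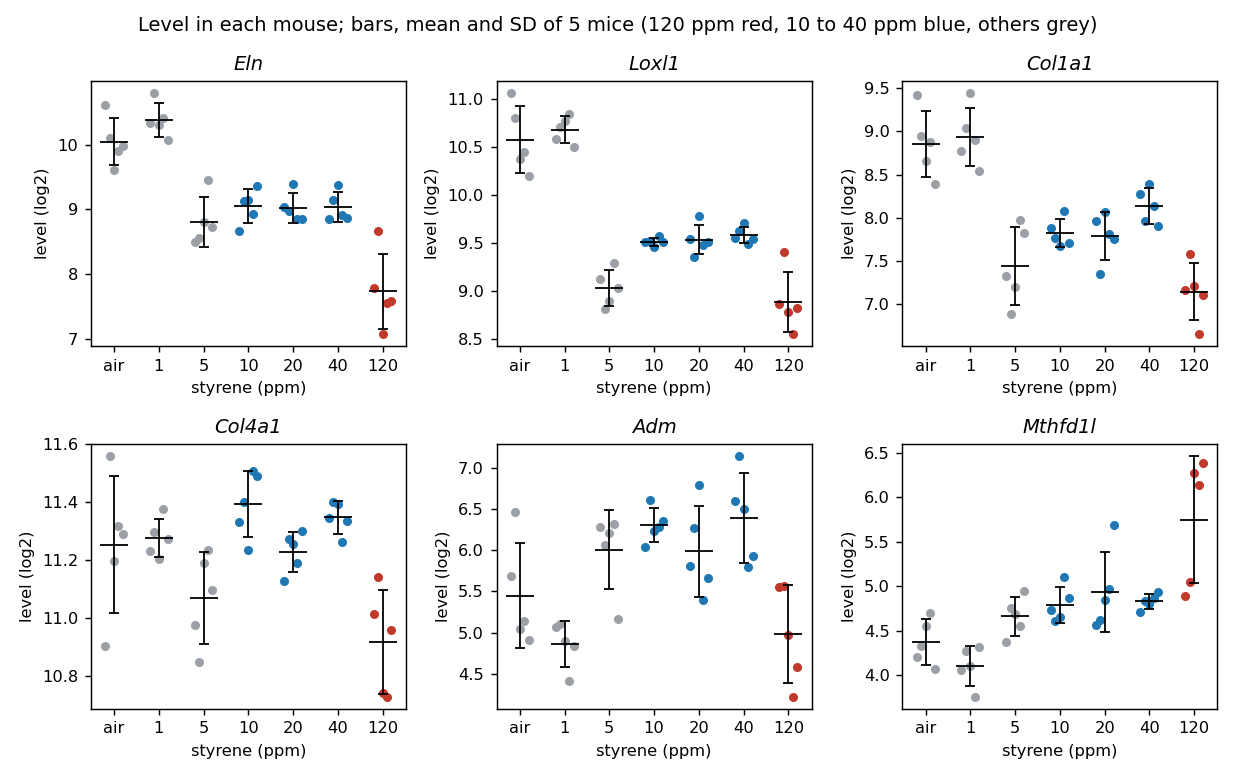
Array level (log2) of 6 called genes in every mouse, with styrene concentration rising from left to right; points are mice, and bars show the mean and SD of 5 mice. Eln at 120 ppm ran from 7.07 to 8.66, below all 15 mice at 10 to 40 ppm, whereas Mthfd1l was above them in 3 of 5 mice.

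The fibrillar collagens give tissue its tensile strength. Col1a1, the alpha 1 chain of type I collagen, was at 7.16, 7.58, 7.22, 6.66 and 7.11 log2 at 120 ppm, against 7.35 to 8.40 with a median of 7.90 at 10 to 40 ppm. Mouse 2 alone overlapped the lower concentrations. The change was -0.77 ± 0.16 (log2, SE; limma adjusted p = 0.0323). Col5a1, a chain of the type V collagen that starts fibrils, was at 7.21, 7.25, 7.32, 6.66 and 7.05 log2 at 120 ppm, against 7.16 to 7.999 with a median of 7.67. Its groups overlapped in 3 mice, and the change was -0.60 ± 0.12 (adjusted p = 0.0338). Col3a1, the chain of type III collagen, was at 12.12, 12.17, 11.79, 11.83 and 11.98 log2 at 120 ppm, against 12.10 to 12.48 with a median of 12.34. Mice 1 and 2 overlapped the lower concentrations, and the change was -0.35 ± 0.07 (adjusted p = 0.0314).

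Col3a1 was also among the genes not called against air. Its mean was 11.98 in air, 12.07 at 1 ppm, 12.29 at 5 ppm, 12.31 at 10 ppm, 12.29 at 20 ppm, 12.39 at 40 ppm and 11.98 at 120 ppm. The level at 120 ppm was that of air. Col5a2 and Col1a2, partner chains of types V and I, had changes of -0.42 ± 0.09 (limma adjusted p = 0.0603) and -0.30 ± 0.09 (adjusted p = 0.232). The Col1a2 probe set was dim, at 3.34 to 3.74 log2 at 120 ppm and 3.55 to 4.22 at 10 to 40 ppm. Those levels lay under the median of the arrays, so its change is a weak measure of that chain. All 5 mice at 120 ppm lay below all 15 others for Col5a2.

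Type IV collagen forms the network of basement membranes. Its 2 main chains are encoded by Col4a1 and Col4a2, which lie head to head on chromosome 8 and are read in opposite directions from a common promoter. Their promoter windows, taken from RefSeq on build GRCm38.p6 from 250 bases before to 50 bases after each gene's start, are shown because both genes fell together. They share 78 bases, printed in capitals, which the second window carries on the opposite strand.
Col4a1, chr8:11312777-11313076, minus strand: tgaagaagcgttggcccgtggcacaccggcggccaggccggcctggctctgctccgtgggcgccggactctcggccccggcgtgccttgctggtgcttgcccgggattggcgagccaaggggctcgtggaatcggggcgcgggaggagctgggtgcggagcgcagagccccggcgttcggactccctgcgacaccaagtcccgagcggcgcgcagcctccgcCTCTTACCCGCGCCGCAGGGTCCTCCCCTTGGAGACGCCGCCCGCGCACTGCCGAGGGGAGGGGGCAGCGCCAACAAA
Col4a2, chr8:11312555-11312854, plus strand: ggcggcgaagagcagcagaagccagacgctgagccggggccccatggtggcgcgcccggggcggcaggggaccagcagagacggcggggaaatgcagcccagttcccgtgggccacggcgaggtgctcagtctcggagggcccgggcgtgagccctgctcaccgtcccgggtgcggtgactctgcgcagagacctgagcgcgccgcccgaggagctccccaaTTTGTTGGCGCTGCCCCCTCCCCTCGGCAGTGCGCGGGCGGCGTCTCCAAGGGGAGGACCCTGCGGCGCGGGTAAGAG

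Col4a1 was at 11.01, 11.14, 10.74, 10.73 and 10.96 log2 at 120 ppm, against 11.13 to 11.51 with a median of 11.33 at 10 to 40 ppm. Mouse 2 alone reached into the range of the 15. The change was -0.41 ± 0.08 (log2, SE; limma adjusted p = 0.0207). Col4a2 was at 10.78, 10.84, 10.61, 10.47 and 10.69 log2 at 120 ppm, against 10.91 to 11.37 with a median of 11.03. All 5 lay below all 15, and the change was -0.38 ± 0.07 (adjusted p = 0.0207). Hspg2, which encodes the basement membrane proteoglycan perlecan, had -0.43 ± 0.10 (adjusted p = 0.0604), with no overlap between the groups. Hspg2 was picked after its values were seen.

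The promoter window of Col3a1 is shown because it was the only one of the called genes' windows to hold TATAAA. It runs along chromosome 1 on the plus strand of the same build, and the capitals mark the letters TATAAA.
Col3a1, chr1:45311288-45311587, plus strand: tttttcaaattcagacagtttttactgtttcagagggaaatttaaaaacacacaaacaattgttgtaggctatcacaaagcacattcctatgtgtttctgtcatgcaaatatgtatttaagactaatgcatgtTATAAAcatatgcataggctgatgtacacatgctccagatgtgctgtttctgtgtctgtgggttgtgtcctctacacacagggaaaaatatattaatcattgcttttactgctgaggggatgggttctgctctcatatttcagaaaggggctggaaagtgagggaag
RefSeq windows were at hand for 10 of the 16 called genes, and 3 short motifs were searched in them on both strands. TATAAA was found in Col3a1 alone, and in 13.6% of all 32851 windows. GGGCGG was found in 9 of the 10, all but Col3a1, and in 35.7% of all windows. CCAAT was found in 5 of the 10 (Col4a1, Col4a2, Hnrnpl, Rhob and Mmp14) and in 37.4% of all windows. These matches describe the letters only.

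Across the list of collagen and elastic matrix genes, 7 of 25 measured members fell and none rose. That count was 1 without 120 ppm mouse 4, 2 without mouse 3 or mouse 5, and 4 without mouse 4 at 10 ppm, mouse 3 at 20 ppm or mouse 1 or 3 at 40 ppm. At an unadjusted p under 0.05 the count was 15 lower and 0 higher, beside 6.27% lower and 4.47% higher over all genes. Of the 25 changes 21 were below 0, beside 9686 of all 17097 genes. The median change of the list was -0.31 on the log2 scale, beside -0.02 for all genes. The mean level of the list was 8.34 to 8.58 log2 in the mice at 120 ppm and 8.65 to 9.04 in those at 10 to 40 ppm. Members with a change near or above 0 included Fn1, encoding fibronectin (-0.07 ± 0.11, limma adjusted p = 0.887), Dcn, the small proteoglycan decorin (0.32 ± 0.22, adjusted p = 0.647), and Postn, encoding periostin (0.38 ± 0.22, adjusted p = 0.554). Tnc, encoding the matrix glycoprotein tenascin C, had the second largest change of the list, at -0.80 ± 0.18 (adjusted p = 0.0596). Type VI collagen chains gave -0.35 ± 0.10 for Col6a3 (adjusted p = 0.161) and -0.26 ± 0.10 for Col6a1 (adjusted p = 0.338). This list was drawn up with earlier results of these data known.

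**Figure D2:**
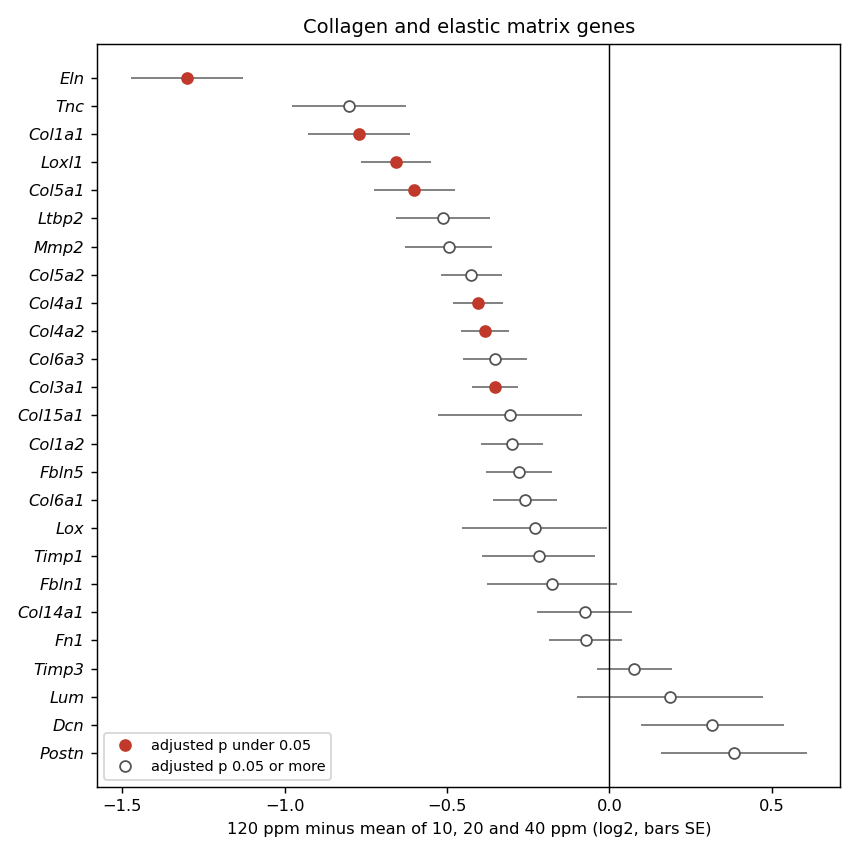
Change of each measured collagen and elastic matrix gene, 120 ppm minus the mean of 10, 20 and 40 ppm (log2, bars are SE); filled points have an adjusted p under 0.05. The 7 filled points are all below 0, with Eln at -1.30, while Dcn and Postn are above 0.

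A protease and receptors that act on matrix or at the cell surface also fell. Mmp14, a membrane-bound metalloproteinase that cleaves collagen, was at 6.54, 6.51, 6.26, 5.80 and 6.22 log2 at 120 ppm, against 6.46 to 7.07 with a median of 6.87 at 10 to 40 ppm. Mice 1 and 2 overlapped the 15. The change was -0.58 ± 0.11 (log2, SE; limma adjusted p = 0.0258). Mrc2, an endocytic receptor that takes up collagen fragments, was at 7.27, 7.70, 7.13, 6.92 and 7.36 log2, against 7.61 to 8.10 with a median of 7.83. Only mouse 2 overlapped, and the change was -0.56 ± 0.10 (adjusted p = 0.0097). Scarf2, a scavenger receptor family member, was at 7.78, 7.80, 7.55, 7.44 and 7.75 log2, against 8.04 to 8.36 with a median of 8.16. All 5 mice lay below all 15 (-0.51 ± 0.09, adjusted p = 0.0151). Mmp2, a gelatinase that MMP14 activates, was not called (-0.49 ± 0.13, adjusted p = 0.144).

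Adm encodes adrenomedullin, a vasodilator peptide, and it had the second largest fall. It was at 5.56, 5.57, 4.97, 4.22 and 4.58 log2 at 120 ppm, against 5.39 to 7.15 with a median of 6.27 at 10 to 40 ppm. Mice 3, 4 and 5 lay below all 15, and mice 1 and 2 inside their range. The change was -1.25 ± 0.24 (log2, SE; limma adjusted p = 0.0207), a level 2.38-fold lower. Adm averaged 5.45 in air, 4.87 at 1 ppm, 6.01 at 5 ppm, 6.30 at 10 ppm, 5.99 at 20 ppm, 6.39 at 40 ppm and 4.98 at 120 ppm. Adm and Col3a1 were the 2 of the 14 that were not also called lower than air, in a comparison that called 68.9% of all genes and 39.1% lower.

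The remaining 3 genes that fell act in the nucleus or in signalling. Thra, the thyroid hormone receptor alpha, was at 7.61, 7.93, 7.30, 7.10 and 7.27 log2 at 120 ppm, against 7.70 to 8.37 with a median of 8.04 at 10 to 40 ppm; mouse 2 alone overlapped (-0.58 ± 0.11, limma adjusted p = 0.0207). Rhob, a small GTPase of endosomes and the cytoskeleton, was at 9.63, 9.70, 9.63, 9.34 and 9.69 log2, against 9.75 to 10.22 with a median of 10.06, with no overlap (-0.41 ± 0.08, adjusted p = 0.0315). Hnrnpl, an RNA-binding regulator of splicing, was at 8.51, 8.65, 8.47, 8.24 and 8.46 log2, against 8.75 to 9.03 with a median of 8.90, also with no overlap (-0.41 ± 0.07, adjusted p = 0.00367). A second probe set of Hnrnpl, close to the floor of the array at 2.63 log2, showed no such fall. Over all called genes, 11 of 12 further probe sets had the same direction and 8 of them an unadjusted p under 0.05, and 6 called genes had a single probe set.

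Mthfd1l and Lonrf1 rose. Mthfd1l encodes a mitochondrial enzyme of folate one-carbon metabolism. It was at 4.89, 5.05, 6.28, 6.14 and 6.39 log2 at 120 ppm, against 4.56 to 5.68 with a median of 4.83 at 10 to 40 ppm. Mice 3, 4 and 5 lay above all 15, while mice 1 and 2 lay among them. The single Mthfd1l probe set was dim. Its mean over all 35 arrays was 4.78 log2, under the cut of 5 used where dim genes were left out. The change of Mthfd1l was 0.90 ± 0.18 (log2, SE; limma adjusted p = 0.0272), or 1.87-fold. Lonrf1, which encodes a RING finger protein with a LON domain, was at 7.16, 7.02, 7.20, 7.94 and 7.36 log2, against 6.56 to 7.02 with a median of 6.79. In 4 of the 5 mice it lay above all 15 (0.56 ± 0.12, adjusted p = 0.0394). Neither gene was called without 120 ppm mouse 3, 4 or 5, or without limma's moderation. Lonrf1 lost its call in 13 of the 20 fits that left out a mouse.

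Single-concentration comparisons called few genes. Against 10 ppm, 3 genes were called (0.0175%): Eln and Hnrnpl fell, and Serpind1, encoding the thrombin inhibitor heparin cofactor II, rose. Serpind1 averaged 5.74 log2 at 120 ppm and 4.52 at 10 ppm (limma adjusted p = 0.0134), but 5.28 at 20 ppm and 5.29 at 40 ppm. Against 20 ppm only Eln was called (0.00585%), and against 40 ppm Eln, Mrc2 and Loxl1 were called, all lower (0.0175%). A line over log2 concentration was also drawn through 10, 20 and 40 ppm and extended to 120 ppm. No gene departed from it at an adjusted p under 0.05 in limma, although 1248 (7.3%) did at an unadjusted p under 0.05, all 16 called genes among them. The 16 were chosen with the same 4 groups, so their place among the 1248 is a description and no support for a departure. The lowest adjusted p for such a departure was 0.176.

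The 5 ppm mice were no part of the comparison. Their mean was nearer to that at 120 ppm than to that at 10 to 40 ppm for 11 of the 16 called genes (68.8%), a share close to the 68.0% of all genes. The 11 were all among the genes that fell. All 5 mice at 5 ppm lay below all 15 at 10 to 40 ppm for Loxl1, Mrc2, Scarf2, Thra, Col4a2 and Rhob, and for 6.89% of all genes. For Scarf2 the mean was 7.66 at 120 ppm, 7.47 at 5 ppm and 8.18 at 10 to 40 ppm. Among the genes that fell, the others were Eln (8.81 at 5 ppm), Adm (6.01) and Col3a1 (12.29), for which the mean at 5 ppm was nearer to that at 10 to 40 ppm. Neither gene that rose was nearer to its 120 ppm level at 5 ppm. For those 11 genes the mean did not move in one direction with concentration from 5 ppm up.

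An array-wide axis of the spread between mice, the first principal component of the deviations from group means, carried 18.8% of that spread. Scores on it averaged 0.557 in air, 0.595 at 1 ppm, -0.539 at 5 ppm, -0.195 at 10 ppm, -0.064 at 20 ppm, -0.106 at 40 ppm and -0.249 at 120 ppm. The difference between 120 ppm and 10 to 40 ppm was -0.127 (exact permutation test over 15504 arrangements, two-sided p = 0.122, adjusted p = 0.244 over 4 array measures). With this axis as a covariate 5 genes were called, all of them among the 16: Eln, Hnrnpl, Loxl1, Mrc2 and Col4a1. The arrays' medians (4.47 against 4.46 log2, exact p = 0.609) and interquartile ranges (3.42 against 3.40 log2, exact p = 0.361) differed by less than the spread between mice.

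Among markers of the cells that make matrix, only collagens were called. Changes were below 0 for 12 of 17 fibroblast markers and 11 of 12 smooth muscle and pericyte markers, beside 9686 of all 17097 genes. The fibroblast list had a median change of -0.09. Of 17 measured fibroblast markers 2 fell, Col3a1 and Col1a1, which the matrix list also holds. A further 2 were lower and 0 higher at an unadjusted p under 0.05, beside 6.27% lower and 4.47% higher over all genes. Pdgfra, the receptor of lung fibroblasts, had -0.19 ± 0.11 (limma adjusted p = 0.541), while Dcn of the same list had a positive change. The mean level of the fibroblast list was 8.70 to 8.99 log2 at 120 ppm and 8.82 to 9.23 at 10 to 40 ppm. Of 12 smooth muscle and pericyte markers, 7 were lower at an unadjusted p under 0.05 (58.3%), 0 were higher and 0 were called, with a list median of -0.32. Their mean level was 7.13 to 7.47 log2 at 120 ppm and 7.21 to 7.92 at 10 to 40 ppm. Examples were Tpm2, a tropomyosin (-0.57 ± 0.12, adjusted p = 0.0596), Acta2, the smooth muscle actin (-0.45 ± 0.14, adjusted p = 0.242), and Pdgfrb, the pericyte receptor (-0.44 ± 0.12, adjusted p = 0.145).

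Of 19 endothelial markers, 6 were lower (31.6%) at an unadjusted p under 0.05 and 0 were higher, with none called. Over all genes 6.27% were lower and 4.47% higher at that level. The list's mean level was 9.59 to 9.90 log2 at 120 ppm and 9.70 to 10.03 at 10 to 40 ppm. Cldn5, a tight junction protein, had -0.31 ± 0.09 (limma adjusted p = 0.145), and Cdh5, the endothelial cadherin, had -0.32 ± 0.09 (adjusted p = 0.162). Alveolar type II markers had 1 of 12 higher (8.33%) and club cell markers 1 of 15 higher (6.67%) at an unadjusted p under 0.05, with 0 lower. The part of these cell types in the fall of the matrix genes was not tested.

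Several genes just short of a call concern the same matrix, and they were picked after their values were seen. Adamtsl2, a microfibril-associated protein, had -0.73 ± 0.16 (limma adjusted p = 0.0603), P3h3, a collagen prolyl hydroxylase family member, had -0.47 ± 0.11 (adjusted p = 0.0604), and Ltbp3, which holds latent TGF-beta in the matrix, had -0.38 ± 0.09 (adjusted p = 0.0707). Spock2, a matrix proteoglycan, had -0.46 ± 0.11 (adjusted p = 0.0604). For Adamtsl2 and P3h3 all 5 mice at 120 ppm lay below all 15. Gem, a small GTPase, headed the genes not called, at -0.61 ± 0.13 (adjusted p = 0.0594).

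**Figure D3:**
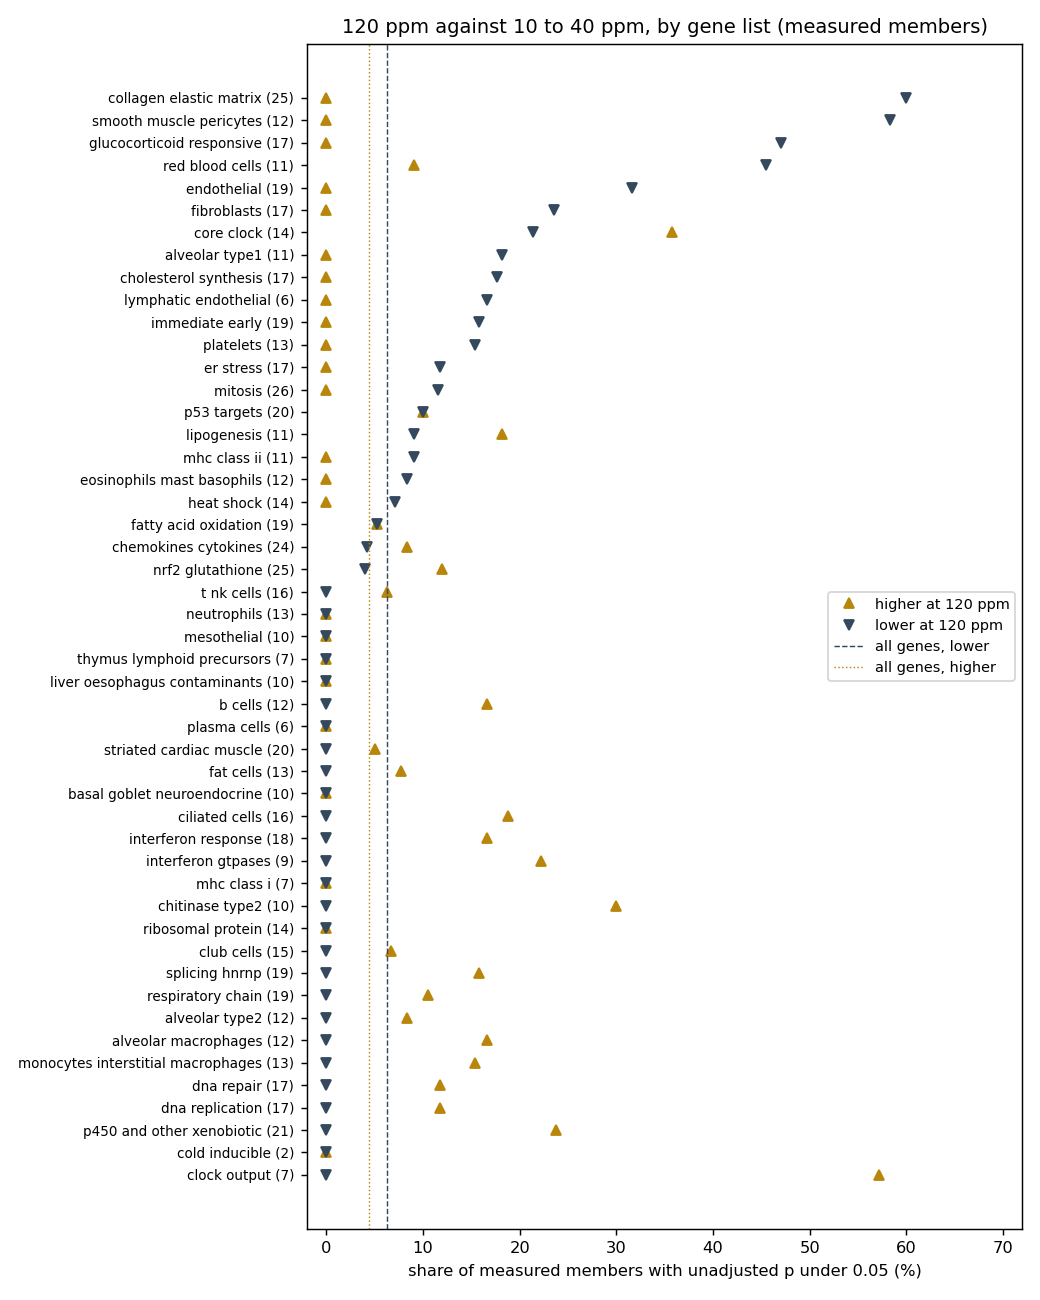
Share of the measured members of each of 49 gene lists (y axis, number measured in brackets) that were lower or higher at 120 ppm at an unadjusted p under 0.05 (x axis, %); dashed and dotted lines give the shares over all genes, 6.27% lower and 4.47% higher. Matrix genes (15 of 25) and smooth muscle markers (7 of 12) stand at the lower end, and clock output genes (4 of 7) at the higher.

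The molecular clock of the lung turns round the transcription factor pair of ARNTL with CLOCK or NPAS2, which drives the Per, Cry and Nr1d genes and output factors such as Dbp, Tef and Hlf. Their transcripts swing over the day, with Arntl and Dbp near opposite phases. No clock gene was called with all mice in the model of the group means alone. With the labels' replicate numbers added to that model as a block, Dbp, Tef, Hlf, Per3, Nr1d2 and Arntl were called. The fits that left out a mouse had no such block. Without 120 ppm mouse 2, 5 genes of the clock lists were called, without 20 ppm mouse 4 or 5 it was 3, and without 40 ppm mouse 5 or 120 ppm mouse 1 it was 2. Dbp was at 6.91, 7.56, 9.48, 9.80 and 9.63 log2 at 120 ppm, against 4.27 to 8.69 with a median of 6.17 at 10 to 40 ppm (2.25 ± 0.70, limma adjusted p = 0.226). Arntl was at 6.39, 6.00, 4.68, 3.62 and 4.03 log2 at 120 ppm, against 5.48 to 7.11 with a median of 6.65 (-1.47 ± 0.33, adjusted p = 0.0603). For both genes mice 3, 4 and 5 lay outside the range of the 15 and mice 1 and 2 inside it.

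Several clock outputs and repressors had positive changes, such as Hlf (1.11 ± 0.24, limma adjusted p = 0.0603), Nr1d2 (1.48 ± 0.35, adjusted p = 0.0707), Per3 (1.41 ± 0.37, adjusted p = 0.118), Per2 (0.74 ± 0.21, adjusted p = 0.168), Tef (0.68 ± 0.21, adjusted p = 0.232) and Ciart (0.60 ± 0.17, adjusted p = 0.182). Per1 went the other way, at -0.20 ± 0.26 (adjusted p = 0.855). Cry1 (0.15 ± 0.16, adjusted p = 0.806) and Cry2 (0.20 ± 0.11, adjusted p = 0.535) changed little, and Clock had -0.10 ± 0.18 (adjusted p = 0.907). Npas2, the partner of ARNTL, had -1.23 ± 0.32 (adjusted p = 0.113), and Nfil3, a repressor of the output genes, had -0.89 ± 0.37 (adjusted p = 0.377). Of 14 core clock genes measured, 5 were higher and 3 lower at an unadjusted p under 0.05, and of 7 clock output genes 4 were higher and 0 lower. Over the 20 arrays, after each group's mean was taken away, the genes whose levels followed Dbp most closely were Per3 (r = 0.965), Zfp346 (0.910), Arhgap24 (0.876), Tef (0.863) and Mms22l (0.862). This is a description over arrays that share a platform and normalisation.

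The clock score, log2 Dbp minus log2 Arntl, was 0.53, 1.57, 4.80, 6.18 and 5.60 in the 5 mice at 120 ppm and ran from -2.70 through a median of -0.48 to 3.13 in the 15 at 10 to 40 ppm. Its difference of 3.72 exceeded the spread between mice (exact permutation test, two-sided p = 0.00387, adjusted p = 0.0155 over 4 array measures). That test took no account of the labels' replicate numbers. Within numbers an exact sign-flip test, added after seeing the data, gave p = 0.0625, the smallest it allows. Mice 3, 4 and 5, with the highest scores, lay below all 15 for 13, 14 and 14 of the 14 genes that fell. Mouse 1, with the lowest score, did so for 10 of them and mouse 2 for 5. The 14 genes were chosen with these same mice, so the counts are a description. With the clock score as a covariate no gene was called by limma, although 1004 genes kept an unadjusted p under 0.05. The Eln change was then -1.02 (adjusted p = 0.115) and the Mthfd1l change 0.47 (adjusted p = 0.826). In mice 1 and 2, whose clock scores lay inside the range of the 15, Eln was at 7.79 and 8.66. The margin in mouse 2 was narrow, at 8.663 against 8.665 in the lowest of the 15. Mthfd1l was at 4.89 and 5.05 in mice 1 and 2, among the 15. Clock score and concentration differed together between the groups, so their parts cannot be told apart and were not tested.

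**Figure D4:**
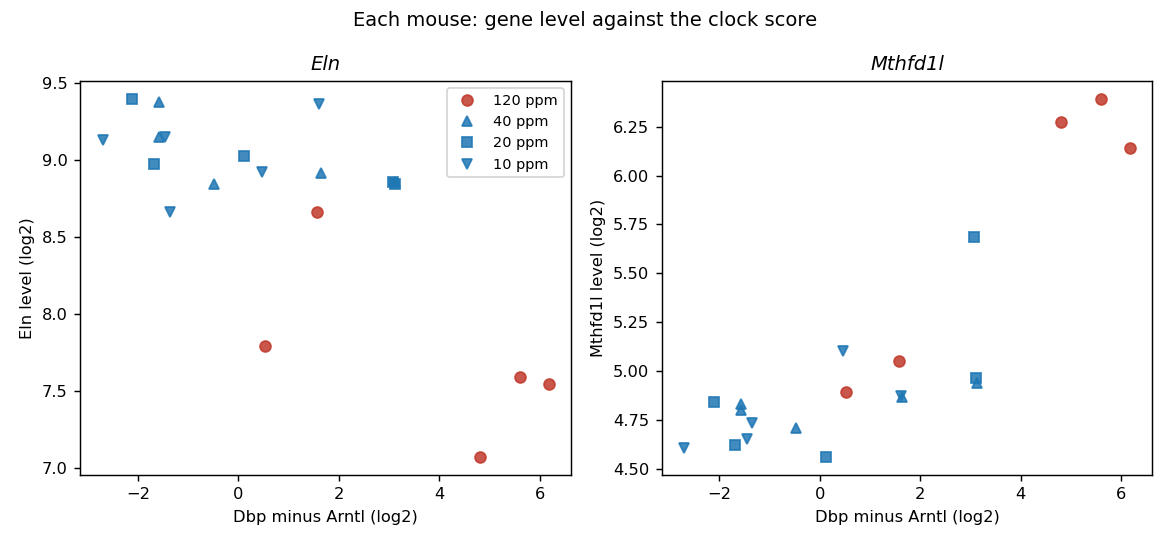
Level of Eln and of Mthfd1l (y axes, log2) against the clock score, log2 Dbp minus log2 Arntl (x axes), in each of the 20 mice. Mice at 120 ppm (red circles) had scores from 0.53 to 6.18 and Eln below all others, by a narrow margin in mouse 2. Mthfd1l exceeded the others in 3 mice with scores of 4.80 or more.

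Glucocorticoid-responsive genes had the largest share of lower values after the matrix and smooth muscle lists. Of 17 measured, 8 were lower and 0 higher at an unadjusted p under 0.05, beside 6.27% lower and 4.47% higher over all genes. A change below 0 was found in 16, beside 9686 of all 17097 genes, and none was called. The median change was -0.34. Angptl4, a lipoprotein lipase inhibitor, had -0.68 ± 0.18 (limma adjusted p = 0.14). Cdkn1a, the cell cycle inhibitor p21, lay between 7.87 and 8.75 log2 at 120 ppm and between 8.20 and 10.14 at 10 to 40 ppm (-0.81 ± 0.25, adjusted p = 0.226). Dusp1 had -0.36 ± 0.13 (adjusted p = 0.312), Tsc22d3 -0.49 ± 0.21 (adjusted p = 0.395) and Zbtb16 -1.24 ± 0.60 (adjusted p = 0.46), with Fkbp5, a chaperone of the glucocorticoid receptor, at -0.49 ± 0.41 (adjusted p = 0.739).

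Genes that handle styrene and its epoxide showed no call. Cyp2f2, the club cell P450 that oxidises styrene in the mouse, was at 13.14 ± 0.05 log2 at 120 ppm (SD, n = 5), against 12.98 to 13.25 with a median of 13.07 at 10 to 40 ppm. Its change was 0.05 ± 0.05, with a 95% interval from -0.05 to 0.15 (limma adjusted p = 0.772). Cyp2e1, a P450 that also oxidises styrene, varied widely between mice, from 6.62 to 10.26 log2 at 120 ppm and from 6.20 to 10.81 at 10 to 40 ppm (-0.01 ± 0.61, adjusted p = 0.999). Ephx1, the microsomal epoxide hydrolase that opens styrene oxide, had 0.17 ± 0.08 (adjusted p = 0.422), and Cyp2b10 had 0.16 ± 0.10 (adjusted p = 0.569).

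Of 21 P450 and other xenobiotic genes measured, 5 were higher (23.8%) and 0 lower at an unadjusted p under 0.05. Over all genes 4.47% were higher and 6.27% lower. Among the xenobiotic genes Cyp2a5 had 0.87 ± 0.35 (limma adjusted p = 0.371) and Fmo2, the lung flavin monooxygenase, 0.41 ± 0.15 (adjusted p = 0.338). Of 25 genes of the NRF2 and glutathione list, 3 were higher (12%) and 1 lower (4%) at that level. Gsta4, a glutathione transferase for lipid aldehydes, had 0.34 ± 0.13 (adjusted p = 0.338), and Nqo1, the quinone reductase driven by NRF2, 0.08 ± 0.16 (adjusted p = 0.918). For Nqo1 the 95% interval ran from -0.25 to 0.41.

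Red blood cell genes had 10 of 11 changes below 0, the exception being Tfrc, beside 9686 of all 17097 genes. Of the 11, 5 were lower and 1 higher at an unadjusted p under 0.05, and none was called. Fech, which inserts iron into haem, had -0.60 ± 0.14 (limma adjusted p = 0.0707), and Alas2, the first haem enzyme of red cells, had -0.52 ± 0.15 (adjusted p = 0.194). Tfrc, the transferrin receptor, had 0.66 ± 0.16 (adjusted p = 0.0876), with 4 of the 5 mice at 120 ppm above all 15 others.

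Immune and growth lists held no called gene. The counts below are at an unadjusted p under 0.05, a level at which 6.27% of all genes were lower and 4.47% higher. Of 10 chitinase-like and type 2 response genes, 3 were higher and 0 lower at an unadjusted p under 0.05, and Chil4, a chitinase-like protein of the inflamed airway, had 0.38 ± 0.17 (limma adjusted p = 0.419). Of 9 interferon-induced GTPases 2 were higher, Gbp7 among them at 0.79 ± 0.29 (adjusted p = 0.322), and of 18 genes of the interferon response list 3 were higher, with 0 lower in either list. Neutrophil markers had 0 of 13 in either direction. Of 26 mitosis genes 3 were lower (11.5%), and of 17 DNA replication genes 2 were higher (11.8%). The list of 20 p53 targets had 2 in each direction (10% each).

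Leaving out single mice at 120 ppm moved the number of calls most. Without mouse 4 only Eln was called, without mouse 3 the count was 3, without mouse 5 it was 5, and without mouse 1 it was 19. Without mouse 2, which lay below all 15 for the fewest of the genes that fell, 61 genes were called, all 16 among them. Leaving out a mouse at 10, 20 or 40 ppm gave 11 to 23. Eln was called in all 20 of these fits (highest limma adjusted p = 0.0053), and Hnrnpl and Loxl1 in all but the one without mouse 4.

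**Figure D5:**
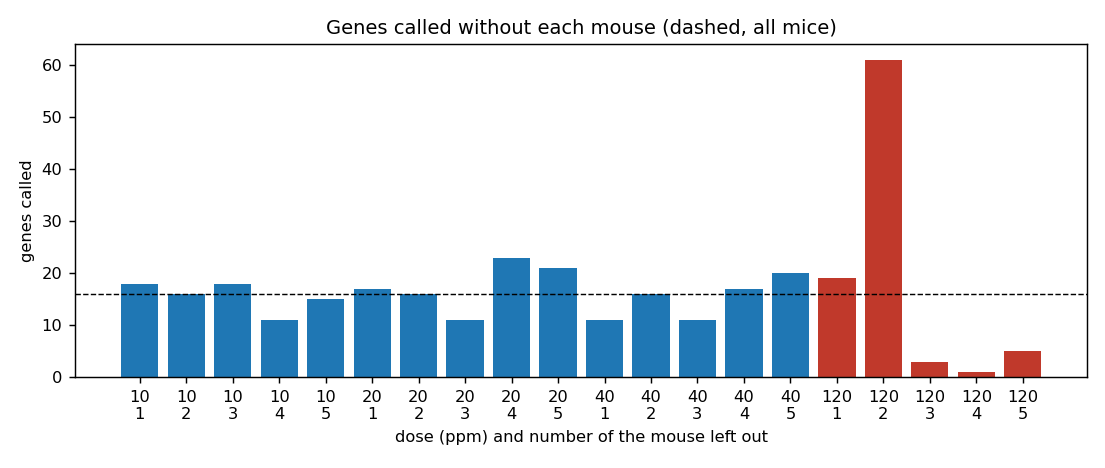
Number of genes called (y axis) when the mouse named on the x axis (concentration in ppm above, mouse number below) was left out; the dashed line is the count with all mice, 16. Bars for mice at 120 ppm (red) lie between 1 and 61, and those for mice at 10, 20 and 40 ppm (blue) between 11 and 23.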

How the data were processed

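Per the labels, whole lung RNA of 35 mice was labelled with biotin by an Affymetrix 3′ kit and put on 1 array each. The deposited values are log2 probe set levels, made with RMA and Partek per the submitters' processing notes, which give no version. RMA removes background, aligns the arrays and combines probes, which makes mice comparable and compresses low values. Array data have no read depth, and 5 mice a group limit the precision.

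Of 45037 probe sets, 28898 named 1 gene, 551 several and 15588 none in the platform annotation. Of those naming 1 gene, 28689 matched RefSeq by Entrez identifier and 0 symbols changed. Each of 17097 genes was taken from its brightest probe set naming 1 gene. No filter on dim genes was applied. A model with 7 group means was fitted to all 35 arrays with limma 3.58.1 (R 4.3.3, eBayes, 28 residual degrees of freedom), with contrasts of 120 ppm with the mean of 10, 20 and 40 ppm, with each, with their line over log2 concentration and with air. Calls needed a p under 0.05 after Benjamini-Hochberg adjustment across the 17097 genes. Tests are two-sided, errors of changes are SE, and p-values measure the spread between mice. Array measures were compared by exact permutation over mice and adjusted over 4 tests. The fit was tested on simulated data.

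The comparison, its 49 gene lists (705 of 809 members measured) and the alternatives were chosen with earlier results of these data known, so no list is independent evidence. Genes named are the 12 largest rises and falls among called genes, up to 4 called members a list, the 5 largest called in each direction against each concentration, the 5 genes most like Dbp, members of a fixed set of clock, glucocorticoid, styrene and marker genes, and other examples from lists and from the genes just short of a call, which were chosen after their values were seen. Some measured members of the fixed set, none of them called, have no values given here. The labels' replicate numbers were not taken as pairs, since same-numbered mice deviated together (r over 0.1) in 17 of 30 comparisons and not in all. That rule does not show same-numbered mice to be unrelated, and fits with the number as a block are given below. Alternatives were other normalisations, filters, probe set rules, covariates, groups fitted, thresholds, weights and moderation, and leaving out each mouse.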

Additional observations from a re-analysis of the deposited data

Results flagged for a closer look

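Among 79 named genes and array measures in the groups of 10, 20, 40 and 120 ppm, 316 groups of 5 mice were examined for a mouse whose gap to the nearest other exceeded 0.71 of the group's range. Per1, Cry1, Cry2 and Clock were not among the 79, nor were they followed through the alternatives below. The gap did so 15 times, and chance alone flags about 1 group in 20. At 120 ppm the mice that stood apart were mouse 4 for Rhob, low at 9.34 log2 (next 9.63), and mouse 3 for Alb, high at 6.64 log2 (next 4.25), a liver transcript. H2-Eb1, a class II antigen presentation gene, was low in mouse 3 of the 10 ppm group (5.83 log2, next 9.33) and in mouse 3 of the 40 ppm group (6.21, next 10.01). At 120 ppm H2-Eb1 was at 9.41, 5.82, 6.00, 5.97 and 9.61 log2, so 3 of the 5 mice held such a low level (change -2.03 ± 0.84, limma adjusted p = 0.381).

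Mmp14 was low in mouse 5 at 10 ppm (6.46 log2) and in mouse 2 at 20 ppm (6.62), and Col3a1 in mouse 2 at 40 ppm (12.21). Mouse 2 at 20 ppm was also low for Cyp2b10 (11.12) and Pdgfrb (6.495). Mouse 3 at 20 ppm was low for Fmo2 (9.59) and Tfrc (7.53). Ephx1 was low in mouse 2 at 10 ppm (9.95) and Ltbp3 in mouse 5 at 20 ppm (8.47). Hspg2 was high in mouse 3 at 40 ppm (7.70), and Tsc22d3 in mouse 1 at 20 ppm (11.62).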

How the results depend on the processing

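The count of called genes, 16 at 120 ppm against 10 to 40 ppm, moved with the processing. It was 52 with only these 4 groups fitted, 36 without dim genes, 30 with every probe set tested alone, 29 with a trended and robust prior, 77 with array weights, 58 at an adjusted p under 0.1, 4 under 0.01, 6 with at least 1.5-fold, 9 with probe sets averaged per gene and 5 with the array axis. With the clock score as a covariate it was 0, also with only the 4 groups fitted. Leaving 10 ppm or 40 ppm out of the mean gave 5 and 3. Against 10 ppm alone (3 genes) the count was 12 with 4 groups, 6 with quantile normalization and 7 with the array axis. Against 20 ppm (1 gene) it was 8 with 4 groups and 0 with the array axis. Against 40 ppm (3 genes) it was 11 with 4 groups, 6 with median centring and 10 without dim genes. Quantile normalization gave 1 gene that differed among 10, 20 and 40 ppm, against 0. The cause of these shifts was not tested.

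With the replicate number as a block, 32 genes were called, all 16 among them, along with 15 against 10 ppm, 5 against 20 ppm and 1 departure from the line. Dbp, Tef, Hlf, Per3, Nr1d2, Arntl, Tnc, Tpm2 and Fech were called with the block and not without it. The numbers were not taken as pairs, and 8 of 20 mice correlated best with their own number. Numbers 4 and 5 had the highest clock scores at 5, 10, 20, 40 and 120 ppm. Within numbers the clock score difference stayed 3.72, positive in 5 of 5, with an exact sign-flip p of 0.0625, the smallest that 5 pairs allow, in a test added after seeing the data. Leaving out each mouse gave 1 to 61 genes, 0 to 14 against 10 ppm, 0 to 5 against 20 ppm, 0 to 14 against 40 ppm, 0 among 10 to 40 ppm and 0 to 1 departures. The array axis difference then ran from -0.184 to -0.0893, that of the clock score from 3.11 to 4.52, of the array median from -0.00274 to 0.0119 and of the interquartile range from 0.0170 to 0.0297.

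No called gene turned its direction under any alternative. Among genes not called, Cyp2e1 turned from -0.01 to 0.55 with the array axis (0.65 with the axis of the 4 groups alone), 0.027 with the interquartile range, 0.14 with the clock score (0.32 in the 4 groups), 0.14 without 10 ppm and 0.090 without 40 ppm, and it ran from -0.636 to 0.274 over the left-out mice. Nqo1 turned to -0.028 without 10 ppm, and Scgb1a1, at -0.012, to 0.012 without 120 ppm mouse 3, with a range from -0.027 over the left-out mice. With the clock score, which holds Dbp by construction, Dbp turned to -0.33 (-0.23 in the 4 groups), Tef to -0.0076 (-0.066) and Nfil3 to 0.32 (0.37). The fits with the axis or the clock score in the 4 groups alone, and with 5 to 120 ppm alone, were chosen after seeing the data.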
